A study of Caenorhabditis elegans with 7 samples.

Results

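The histone genes of Caenorhabditis elegans were followed in embryonic A-class motor neurons and in a reference of mixed embryonic cells from a separate, wildtype strain. A probe set, the group of short oligonucleotides that reads 1 transcript or a few near-identical ones, was taken where every gene symbol given for it was a histone name (his, hil, htz, htas or cpar with a number). The rule took 66 of the 22548 probe sets on the array, and these named 83 genes. Of the 66, 43 carried 1 symbol and 23 carried several, up to 14 genes on 1 probe set, and 1 further probe set that listed a histone beside another gene was left out.

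Histones package DNA. Octamers of H2A, H2B, H3 and H4 form the nucleosome core, and H1 linker histones bind the DNA between nucleosomes. The core genes lie in clusters that are transcribed mainly in S phase, and their mRNAs end in a stem-loop, bound in the worm by CDL-1, in place of a poly(A) tail. Replacement histones such as H3.3 and H2A.Z are made outside S phase as well, from polyadenylated mRNAs, and can be loaded into the chromatin of cells that no longer divide. The centromere has an H3 of its own, CENP-A.

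The 3 A-class arrays held RNA of cells positive for unc-4::GFP, a reporter driven by the promoter of the homeobox gene unc-4, sorted by FACS from dissociated embryos after 24 h in culture to about 90% GFP+ cells. The 4 reference arrays held RNA of all living (propidium iodide-negative) cells from wildtype N2 embryos that went through the same dissociation and culture, so the reference was a mixture of cell types without the transgene that contains motor neurons too, and strain cannot be told apart from the group. Both groups went onto the Affymetrix C. elegans GeneChip as biotin-labelled cRNA, made from 100 ng of RNA by a small-sample protocol with 2 transcription steps. The promoter also labels a few neurons outside the A class, and both groups were cultured cells, not tissue taken from the animal.

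The labels name the arrays of a group biological replicates, but nothing more of their origin was used, so p-values measure the spread between these arrays. Squared correlations over all probe sets were 0.893 to 0.947 within A-class, 0.938 to 0.969 within the reference and 0.772 to 0.876 between the groups, and array medians lay between 66.9 and 70.1 intensity units. The unc-4 transcript averaged 3.72 ± 0.125 (SE) log2 units higher in A-class, and 5 of 10 neuron markers were called higher and none lower. Body wall muscle markers were called in neither direction. Of these 8 markers, 7 had log2 fold changes below 0, and 6 lay under every reference array, as did 14.0% of all probe sets. Their summed intensity was 822 to 1364 in A-class and 1592 to 2383 in the reference. Of 9 hypodermis markers, 1 was called lower and none higher, with log2 fold changes above 0 for 3 and below 0 for 6. No pharynx or intestine marker was called, and 1 of 6 and 3 of 7 were above 0. Over all probe sets 2.2% were called higher and 3.46% lower. Germ line markers summed to 1387 to 2008 in A-class against 848 to 1105 in the reference. Of these 10 markers, 2 were called higher (glh-4 and gld-1) and 1 lower (deps-1). In such bulk samples fewer cells of a type and less RNA per cell cannot be told apart.

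As a family the histones did not move in 1 direction. Of the 66 probe sets, 1 was called higher in A-class, where 2.2% of all probe sets were, and 2 were called lower, where 3.46% of all were. A call required a Benjamini-Hochberg adjusted p from limma under 0.01 over all probe sets and a change of at least 1.7-fold. The median log2 fold change (A-class minus reference) was 0.03, beside 0.04 over all probe sets, with 35 members above 0 and 31 below. At an adjusted p under 0.05 with the same fold, 4 were higher (all probe sets, 3.99%) and 5 were lower (all, 6.96%). Every A-class array exceeded every reference array for 11 members (all, 16.9%) and lay under every reference array for 10 (all, 14.0%), and the groups overlapped for the other 45.

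The near-zero median covered classes that differed in sign. The H3 probe sets had a median of 0.40 with 11 of 11 above 0, and the replication-independent H3 variants a median of 0.61 with 7 of 7 above 0. Linker H1 had a median of -0.44 with 9 of 13 below 0, and H4 a median of -0.39 with 9 of 12 below 0. H2A had a median of -0.24 with 7 of 8 below 0, and H2B a median of 0.01 with 5 on each side. The H2A gene his-35 was counted with the other replacement histones, not among these H2A sets. A second quantile normalization or median centring of the arrays left the sign of all these class medians as it was. Their size depended on single arrays: H4 was at -0.22 when A-class replicate 1 was left out and at -0.26 when reference replicate 3 was, and H2A at -0.11 without reference replicate 1, -0.16 without A-class replicate 1 and -0.40 without A-class replicate 2. H2B ran from -0.15 (without reference replicate 4) to 0.16 (without A-class replicate 1). These are descriptions of probe sets that share sequence, and no test was made over a class.

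**Figure D1:**
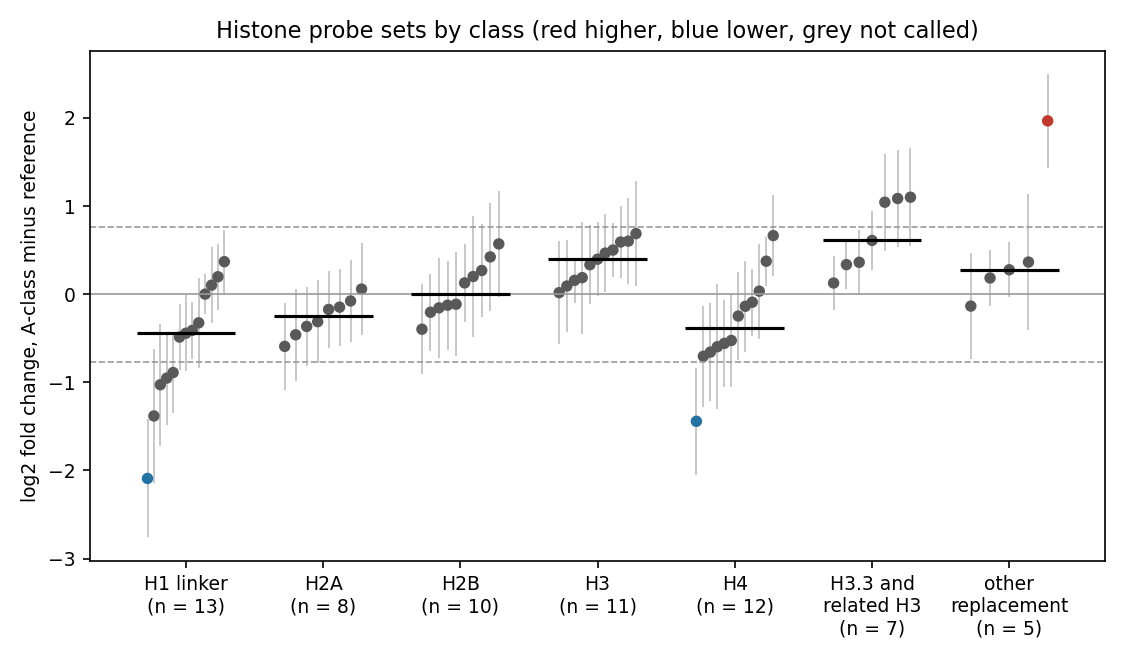
Each point is 1 histone probe set, placed by class, and the vertical axis gives its log2 fold change, A-class minus reference, with its 95% confidence interval in grey. Black bars are class medians and dashed lines mark 1.7-fold; of the 66 points, 1 is called higher (cpar-1) and 2 lower (hil-5 and the set shared by his-10, his-26 and his-14).

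The largest rise was that of cpar-1, a paralogue of the centromeric H3, CENP-A. Its intensity was 275, 409 and 220.2 in A-class replicates 1 to 3 and 78.7, 59.1, 93.4 and 71.2 in reference replicates 1 to 4. The lowest A-class array was thus well above the highest reference array. The log2 fold change was 1.97 ± 0.23 (SE), or 3.91-fold, with an adjusted p of 0.00176 in limma. The call held whichever of the 7 arrays was left out, with log2 fold changes of 1.72 to 2.17 and adjusted p from 0.0040 to 0.00882. Within fluidics module 1 the difference was 2.00 and within module 2 it was 2.22, but blocking on the module gave an adjusted p of 0.0122.

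The other CENP-A gene of the worm, hcp-3, which lies outside the name rule, did not follow. It read 85.4, 130.1 and 110.9 in A-class and 101, 117, 169.7 and 117 in the reference, so that the groups overlapped. The log2 fold change of hcp-3 was -0.21 ± 0.21 (SE), with an adjusted p of 0.513. The gene knl-2, whose product is required for CENP-A loading, was called lower in A-class at -0.99 ± 0.13 (SE), with an adjusted p of 0.00243. Of the 10 germ line markers, gld-1 (1.57) and glh-4 (1.59) were called higher and deps-1 (-0.84) lower. The other 7 were not called, from -0.17 for him-3 and 0.15 for pgl-1 to 1.20 for glh-1, and the list median was 0.29. The part of such cells in the cpar-1 level was not tested.

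Among the H3 variants, his-71 and his-72 encode H3.3, the replacement H3 deposited outside S phase, and his-74 a closely related H3. All 4 of their probe sets were higher in every A-class array than in any reference array (16.9% of all probe sets were), though none passed the call. The his-72 probe set 172863_x_at read 5097, 5803 and 5403 in A-class and 3029, 4027, 4135 and 3172 in the reference. The difference on the log2 scale was 0.61 ± 0.15 (SE), with an adjusted p of 0.0259. The second set of the same gene, 171960_x_at, read 1912, 2307 and 2319 in A-class and 833, 1265, 1414 and 734 in the reference. It differed by 1.09 ± 0.24 (SE), with an adjusted p of 0.0181, so both sets of his-72 separated the groups and gave changes 0.48 log2 units apart.

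The his-71 set read 155, 166 and 224 in A-class against 123, 90.0, 69.3 and 63.9 in the reference. Reference replicate 1 stood nearest to the A-class arrays. The log2 fold change was 1.10 ± 0.24 (SE) with an adjusted p of 0.0181, and with 1 array left out it ran from 0.94 to 1.28 with adjusted p from 0.00682 to 0.0659, past the call only without reference replicate 1. Blocking on the fluidics module gave an adjusted p of 0.0788. The his-74 set read 221, 295 and 243 in A-class and 159.9, 103, 157 and 85.5 in the reference, with no overlap, a log2 fold change of 1.04 ± 0.24 (SE) and an adjusted p of 0.0220. The median over these 4 sets was 1.06, and 1.09 once the fluidics module was blocked. The remaining H3 variants read between 14 and 91.7 units on every array. The his-69 set separated the groups by a narrow margin, from 82.2 to 91.7 in A-class and 61.1 to 74.3 in the reference, and his-70 and his-73 overlapped at differences of 0.13 and 0.36.

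The other replacement histones did not pass the call. H2A.Z, encoded by htz-1 and found at promoters, was read by a pair of probe sets with differences of -0.14 and 0.28 and adjusted p of 0.741 and 0.188. The second, 171937_x_at, did not overlap, but its lowest A-class array (215) was next to its highest reference array (214). The first turned positive, at 0.040, when the fluidics module was blocked. The his-35 gene, an H2A outside the large clusters, ranged from 681 to 1361 in A-class and 464 to 1211 in the reference, with a log2 fold change of 0.36 ± 0.34 (SE). The sperm-associated H2A variant htas-1 overlapped, at 36 to 49.4 in A-class and 36.3 to 41.9 in the reference.

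**Figure D2:**
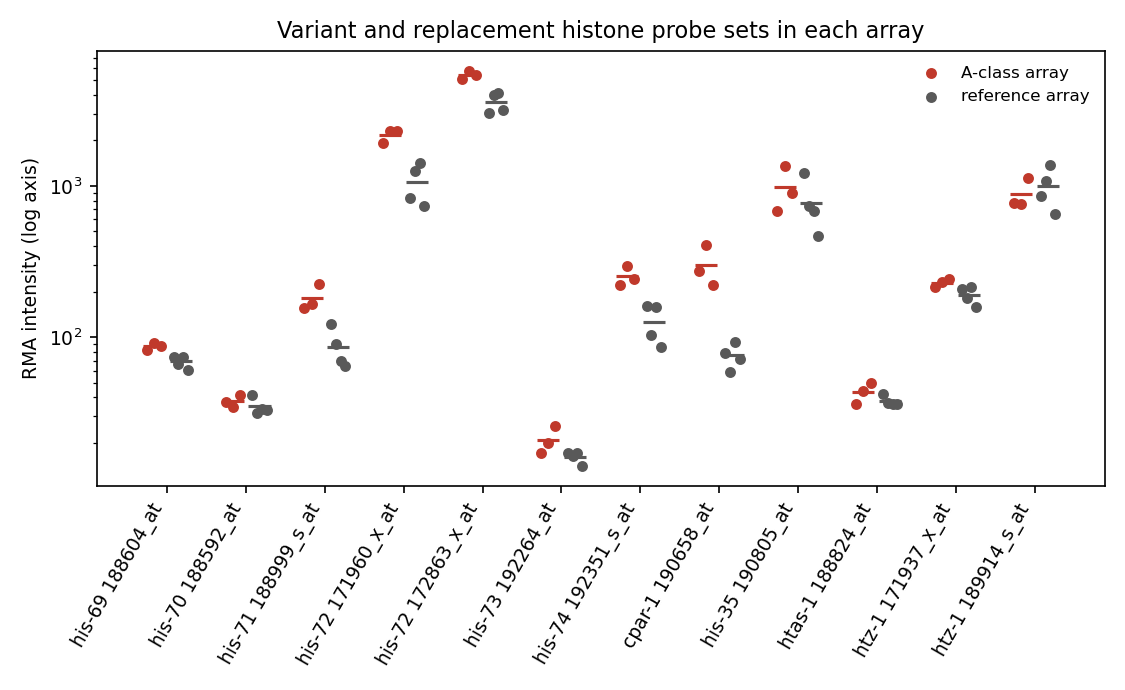
RMA intensity on a log axis for the H3 variant and other replacement histone probe sets, with red points for the 3 A-class arrays, grey points for the 4 reference arrays and short bars for group means. The points do not overlap between groups for cpar-1, his-71, his-74, his-69, both his-72 sets and, by a narrow margin, htz-1 171937_x_at; levels are to be compared within a probe set only.

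Most linker histone sets lay on the other side. Of 13 H1 probe sets 1 was called lower (3.46% of all probe sets were) and none higher (2.2% of all), and 6 lay under every reference array (14.0% of all) and none above (16.9% of all). The called gene, hil-5, one of the H1-like genes, read 358, 344 and 389.6 in A-class and 961, 1310.2, 2512 and 1819 in the reference. The A-class arrays were tightly grouped, while the reference arrays spread over a wide range above them. The log2 fold change was -2.09 ± 0.29 (SE), a 4.26-fold difference, with an adjusted p of 0.0031. The call was lost without any of 5 of the 7 arrays (each A-class array, and reference replicates 2 and 4), with log2 fold changes of -2.32 to -1.86 and adjusted p from 0.00166 to 0.0146 over the 7. Blocking on the fluidics module gave -1.86 and an adjusted p of 0.0160.

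hil-4 followed the same order, with 147, 159 and 215 in A-class and 292, 424, 847 and 379 in the reference. No array overlapped, and the log2 fold change was -1.38 ± 0.33 (SE) with an adjusted p of 0.0253. One hil-3 set, 188654_at, read 1490.1, 753 and 1577 against 1752, 2863, 3256 and 2264, again without overlap, at -1.03 ± 0.30 (SE) and an adjusted p of 0.0507. The other hil-3 set overlapped and differed by -0.44. All 3 sets of hil-7 were lower, by -0.95, -0.49 and -0.41. For the hil-7 set with the widest gap, 172675_x_at, intensities were 1585, 2457 and 3292 in A-class and 4869, 4980.5, 4023 and 4321 in the reference. Its A-class arrays all lay under the reference, and the adjusted p was 0.0257. A second hil-7 set, 171921_x_at, was also free of overlap, and the third was not.

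For his-24, which encodes the major worm H1 (H1.1), the probe sets did not give the same answer. The set 190225_s_at read 2002, 1384 and 2067 in A-class and 2514, 3791, 3796 and 3338 in the reference, a difference of -0.89 ± 0.20 (SE) with an adjusted p of 0.0200. The set 175662_at read 3835, 3436 and 4399 against 2927, 4129.6, 3678 and 2915, which overlapped, with a difference of 0.20 ± 0.16 (SE). Both sets list his-24 as their only gene, and at 1.09 log2 units theirs was the widest gap between probe sets of 1 gene list among the histones. Which of them follows the his-24 mRNA was not tested. The other H1 genes did not separate in the same way. hil-2 differed by -0.33 and hil-6 by 0.10, while hil-1 and hil-8 differed by 0.00 and 0.37.

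**Figure D3:**
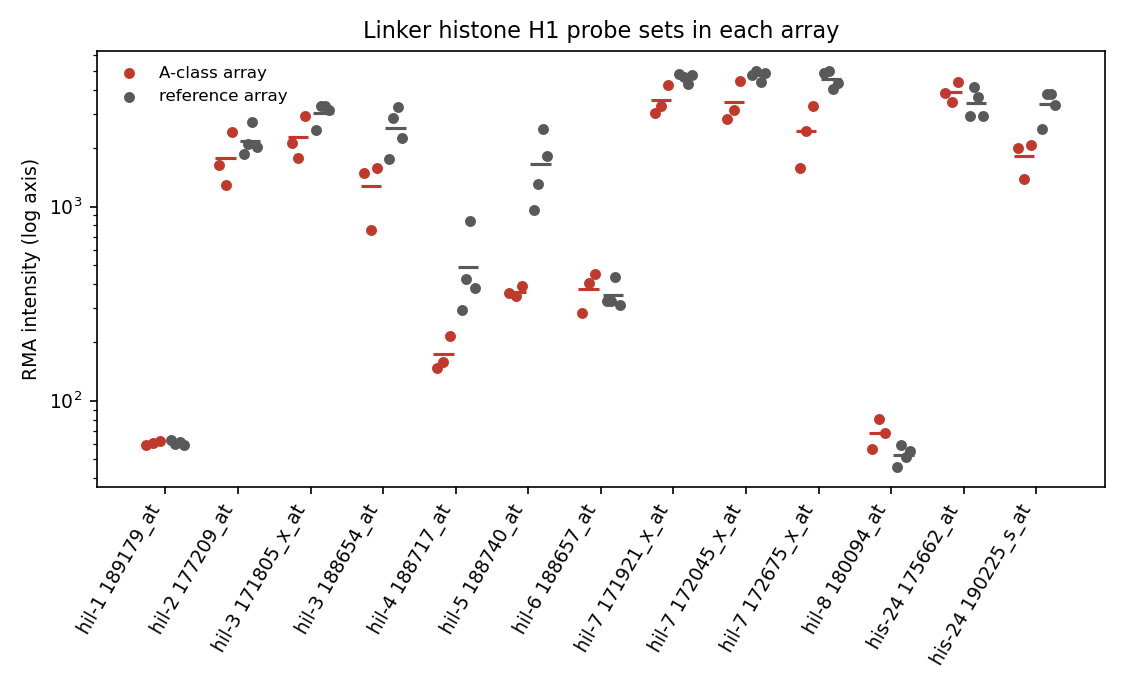
RMA intensity on a log axis for the 13 linker histone H1 probe sets, with red points for the 3 A-class arrays, grey points for the 4 reference arrays and short bars for group means. The A-class points lie under all reference points for hil-5, hil-4, 1 set of hil-3, 2 sets of hil-7 and 1 set of his-24, and the other his-24 set overlaps.

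The core histones gave 1 call over 41 probe sets, a lower one, where 3.46% of all probe sets were called lower and 2.2% higher. It was a set shared by the H4 genes his-10, his-26 and his-14, which read 103, 239.5 and 163 in A-class and 373, 443, 514 and 409 in the reference. All A-class arrays were lower, replicate 1 most of all. The log2 fold change was -1.44 ± 0.26 (SE), 2.72-fold, with an adjusted p of 0.00911. The call was kept only without A-class replicate 2 and lost without any of the other 6 arrays, with log2 fold changes of -1.74 to -1.13 and adjusted p from 0.00476 to 0.0336. Blocking on the module gave -1.36 and an adjusted p of 0.0407.

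The remaining H4 sets spread from -0.70, for the set of his-28 and his-50, to 0.66 for his-37. The latter gene lies outside the large clusters, and its set read 2799, 2548 and 3358 in A-class and 2396, 1757, 1938 and 1339 in the reference. Every A-class array was above the reference, at 0.66 ± 0.20 (SE) and an adjusted p of 0.0561. The genes his-35 (H2A) and his-41 (H2B), which neighbour each other in RefSeq, were also positive, at 0.36 and 0.20, but their arrays overlapped. his-41 changed sign, to -0.071, without reference replicate 4. For 4 of the 66 members, 3 of them H4 and 1 H2A, reference replicates 2 and 4 had exactly equal intensities, as did 974 probe sets (4.32%) of the array. Equal values were not particular to this pair, and other pairs were not counted. For his-61, A-class replicate 3 and reference replicate 2 both read 789.06, and for his-69, reference replicates 1 and 3 both read 74.297.

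H3 sets ran from 0.02 for his-42 to 0.69 for his-32, and none passed the call. The his-2 set read 988, 1117 and 1057 in A-class and 764, 765, 848 and 618 in the reference. It did not overlap, and the difference was 0.50 ± 0.14 (SE) with an adjusted p of 0.0377. The his-32 set read 483, 743 and 704 against 391, 421, 552 and 262. Here A-class replicate 1 fell within the reference range, and the adjusted p was 0.101. The his-59 set read 1191, 1681 and 1544 against 862, 1067, 1271 and 726, overlapping in the same array, at 0.60 ± 0.21 (SE).

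For the H2A class, which leaves out his-35, the lowest value was -0.59, for the set of his-43, his-12 and his-16. The highest was 0.06, for his-61. The set shared by his-19, his-53, his-21 and his-51, differed by -0.31. For H2B the range was from -0.40, for a set of 5 genes including his-20, to 0.57 for his-62, with his-41 at 0.20. No H2A or H2B set passed an adjusted p of 0.05. The sign of his-61 and of his-42 turned when 1 array was left out, with ranges of -0.12 to 0.18 and -0.12 to 0.25.

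Genes that neighbour each other on the chromosome did not share 1 fold change. RefSeq placed 66 of the 83 genes in 16 runs of adjacent histone genes. In the run his-1 to his-4, the H4 gene his-1 differed by -0.25 ± 0.22 (SE), the H3 gene his-2 by 0.50 ± 0.14, the H2A gene his-3 by -0.17 ± 0.19 and the H2B gene his-4 by -0.13 ± 0.22. For the run his-31 to his-34 the values were 0.03 ± 0.24 (H4), 0.69 ± 0.26 (H3), -0.15 ± 0.19 (H2A) and 0.13 ± 0.19 (H2B). The H2A set there also lists his-30 and the H2B set his-29, genes of a separate run. In both runs the H3 value was the highest and the only one more than 2 SE from 0, though differences between genes of a run were not tested. The run his-59 to his-62 differed in this. Its H3 gene his-59 was at 0.60 ± 0.21 (SE), its H2B gene his-62 at 0.57 ± 0.26 and its H2A gene his-61 at 0.06 ± 0.23. The H4 set with his-60, shared with other runs, was at 0.37 ± 0.12. There the H2B and H4 values also lay more than 2 SE above 0. Of the probe sets shared over his-45 to his-48 and their copies in other runs, H4 was at -0.56, H2A at -0.46, the H3 pair at 0.09 and 0.47, and the H2B pair at 0.27 and 0.42. A further H4 set, of the same genes with his-60, was at 0.37 in the opposite direction.

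**Figure D4:**
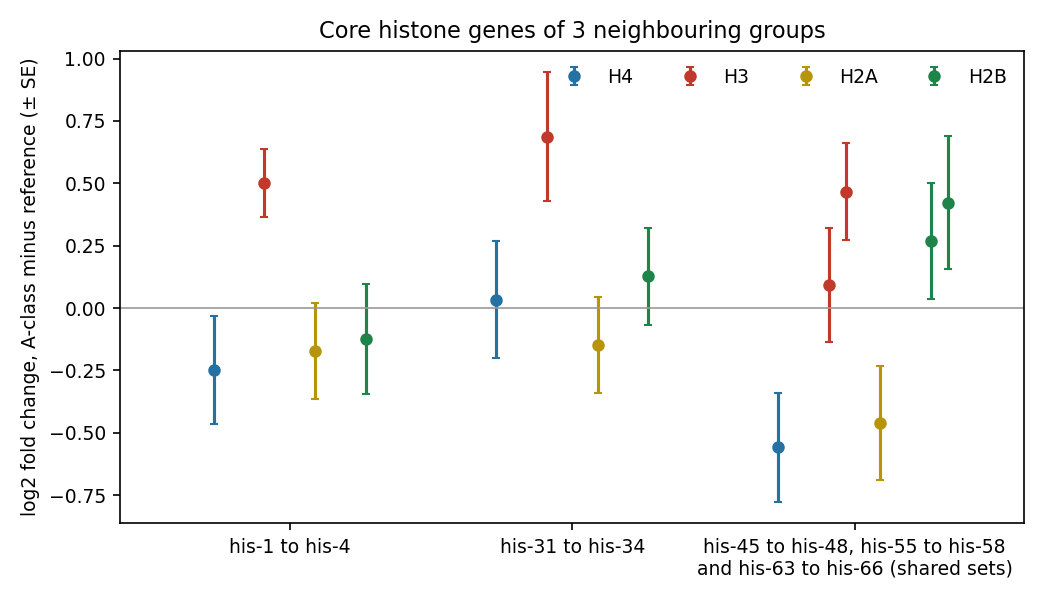
Log2 fold change, A-class minus reference, with its SE, for H4 (blue), H3 (red), H2A (yellow) and H2B (green) probe sets of 2 runs of adjacent genes and of 1 family of shared probe sets. In the runs his-1 to his-4 and his-31 to his-34 the H3 point is highest, at 0.50 and 0.69. The H2A and H2B sets of his-31 to his-34 are shared with his-30 and his-29 of a separate run.

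Levels of the family varied as much between arrays of 1 group as between the groups. The median over the 66 members, set against the reference mean, was -0.22, 0.21 and 0.09 in A-class replicates 1 to 3 and 0.07, -0.05, 0.30 and -0.33 in reference replicates 1 to 4. Reference replicates 3 and 4 thus stood further apart than the groups did. H4 medians were -0.66, -0.06 and -0.40 in A-class against 0.15, -0.16, 0.35 and -0.30 in the reference. H3 medians were 0.19, 0.51 and 0.48 in A-class against -0.01, -0.01, 0.40 and -0.42 in the reference. Both classes therefore overlapped between the groups, whereas the H3 variants did not, with 0.52, 0.71 and 0.69 in A-class against 0.11, 0.02, 0.11 and -0.19.

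Fluidics module 1 held 2 A-class and 2 reference arrays, module 2 held 1 of each and module 3 held 1 reference array. The median over the members was 0.25 within module 1 and -0.14 within module 2. H1 was negative in both (-0.36 and -0.64), as was H4 (-0.13 and -0.57), and H3 was positive in both (0.66 and 0.17), as were the H3 variants (0.85 and 0.34), while H2B turned from 0.30 to -0.08. No chip lot or hybridization day held both groups, so lot and day cannot be told apart from the group.

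Genes for making and dividing chromosomes stood beside this as follows. Of 14 measured genes for histone supply, chaperones and CENP-A, 2 were called lower and none higher, where 3.46% and 2.2% of all probe sets were. The stem-loop binding protein gene cdl-1, required for replication-dependent histone mRNAs, read 65, 64 and 79.3 in A-class and 228, 444, 326 and 406 in the reference. No arrays overlapped, and the log2 fold change of cdl-1 was -2.30 ± 0.23 (SE) with an adjusted p of 0.000912. The second, rba-1, which encodes an RbAp46/48-type histone-binding protein, differed by -0.94 with an adjusted p of 0.00268. The HIRA homologue hira-1, known as the H3.3 chaperone, was not called, at -0.20 ± 0.27 (SE).

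DNA replication and S phase genes were called lower for 5 of 34 (3.46% of all probe sets were) and higher for none (2.2% of all). The replicative helicase subunit mcm-7 differed by -3.66 ± 0.26 (SE), and mcm-5, mcm-4, rnr-1 and div-1 were lower by -1.69, -1.45, -1.44 and -0.94. Mitosis genes were called lower for 8 of 32, beside the same 3.46% of all, among them cyb-3 (-2.22), fzy-1 (-2.06), plk-1 (-1.96) and bub-3 (-1.78), and mdf-1 was called higher at 1.10. The list medians were -0.20 for supply, -0.28 for replication and -0.71 for mitosis. Those over the 41 core histone sets and over the H1 sets were -0.08 and -0.44. The lists took 1 probe set a gene, whereas the histone medians covered all sets, shared ones included. With the fluidics module blocked the core median was 0.06. Blocking on the fluidics module left 0, 3 and 1 lower calls in these lists, and leaving out 1 array gave 1 to 2, 3 to 6 and 3 to 10. The mdf-1 call was lost without any 1 of the 7 arrays.

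**Figure D5:**
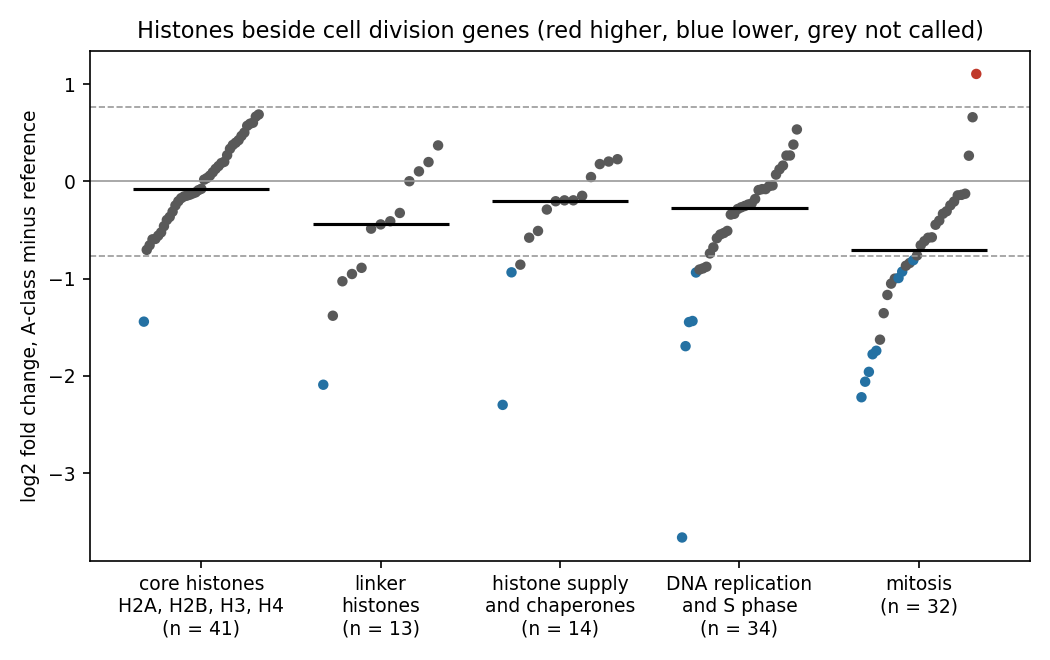
Log2 fold change, A-class minus reference, for the 41 core histone probe sets, the 13 linker sets and the genes of 3 lists (histone supply and chaperones, DNA replication and S phase, mitosis), with black bars for medians and dashed lines at 1.7-fold. Lower calls (blue) number 1 in the core sets, 1 in the linker sets, 2, 5 and 8 in the lists, where 3.46% of all probe sets were called lower. The core histone median of -0.08 is the nearest to 0. It joins H3 sets above 0 with H4 and H2A sets mostly below 0, and was 0.06 when the fluidics module was blocked.

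Measurement limits bear on the core genes most. Of the 66 probe sets, 41 end in _x_at, the suffix for sets whose probes can pair with other transcripts, and near-identical genes cannot be separated there. Small-sample amplification usually starts from a primer that pairs with poly(A), and the primer is not given in the sources used here, so how much non-polyadenylated histone mRNA was read on either group of arrays was not tested.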

How the data were processed

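RNA of 3 A-class and 4 reference samples was measured on the Affymetrix C. elegans array. The authors deposited 1 table of RMA intensity values on a linear scale, background-corrected and normalized. Which RMA version was run, and on which arrays at once, was not given in the sources used here. All 7 columns had a sample, and 0 columns were without one. Intensities were log2-transformed with no pseudocount and no filter. Over all 22548 probe sets limma 3.58.1 in R 4.3.3 (lmFit and eBayes, 5 residual degrees of freedom, two-sided) compared the groups, with Benjamini-Hochberg adjustment. The fit was checked on simulated data. Medians and counts came from Python 3.11.15 with pandas 2.3.3, and plots from matplotlib 3.10.9.

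Symbols came from the array annotation (20766 probe sets with 1 symbol, 887 with several, 895 with none). For each gene of the other lists, 1 set with 1 symbol was taken, by suffix (_at first) and then by highest mean intensity. All 83 genes matched the RefSeq table, which gave names and neighbours only. Classes of 38 genes were read from the study's annotation and the others from the family names. Named were all called members, all variant, replacement and linker sets, the lowest, highest and brightest set of each core class, and up to 4 called genes of each other list (all where 5 or fewer passed). Other genes named for their neighbourhood or role, hil- and his- sets beyond this rule included, were chosen after their values were seen. The members and gene lists were chosen with earlier results of these data known. With 7 arrays in all, their number sets the precision. Chip lot, fluidics module and hybridization day came from the scanner records. The alternatives were other thresholds, SAM, trend and robust variances, a filter on dim probe sets, other scalings, an offset, probe set classes, blocks, and leaving out each array.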

Additional observations from a re-analysis of the deposited data

Results flagged for a closer look

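Of 36 named histone probe sets, 3 held 1 reference array that stood apart from the other 3 by Dixon's ratio of gap to range, past its 95% critical value for 4 samples. Chance alone gives such a gap in about 1 in 20 groups. For the hil-3 set 171805_x_at the ratio was 0.857, with reference replicate 1 lowest at 2474 and the next array at 3152. For hil-6 it was 0.855, with reference replicate 3 highest at 431 and the next at 327. For the htas-1 set it was 0.912, with reference replicate 1 highest at 41.9 and the next at 36.7.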

How the results depend on the processing

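The median over the histone sets moved by less than the spread of the array medians (0.25) in every alternative, between -0.09 and 0.25. Class medians were not taken among _at sets only or among sets with 1 symbol. Over the other settings those of H1, H2A, H3, H4 and the H3 variants kept their sign, and that of H2B ran from -0.15 to 0.30. Among sets ending in _at, H4 values were -0.09 for his-67, 0.37 for the set with his-60 and 0.66 for his-37. The count called higher was 1 under most settings, but 4 at an adjusted p under 0.05, 2 under SAM at a 1% false discovery rate, 0 when the fluidics module was blocked and 0 in module 1 alone, and 1 to 2 with 1 array left out (2 without reference replicate 1). The count called lower, 2, became 5 at an adjusted p under 0.05, 1 among _at sets only, 1 among sets with 1 symbol (the shared H4 set is left out there by construction) and 1 after a second quantile normalization. It was 0 on log2(intensity + 50), 0 when the module was blocked and 0 in module 1 alone, and 0 to 1 with 1 array left out. The module 1 comparison was chosen after seeing the data. Other than these the causes were not tested. The replicate numbers gave no sign of pairing. Once the group mean of each probe set was subtracted, same-numbered arrays correlated at 0.03, -0.12 and -0.05. With the replicate number as a block on 3 pairs, which leaves out reference replicate 4, 0 were called higher and 0 lower, cpar-1 was at 1.94 with an adjusted p of 0.0205, and hil-1 (-0.014), his-61 (-0.11), his-41 (-0.071) and his-42 (-0.12) changed sign. htz-1 (189914_s_at) changed sign to 0.040 when the fluidics module was blocked and to 0.30 in module 1 alone. Leaving out 1 array turned the sign of 6 near-zero values, over ranges of -0.018 to 0.020 (hil-1), -0.036 to 0.30 (hil-6), -0.12 to 0.18 (his-61), -0.071 to 0.42 (his-41), -0.12 to 0.25 (his-42) and -0.33 to 0.040 (htz-1). The dimmest sets, such as his-73 at 14 to 25.8, are limited by signal over background, which could not be judged without detection calls.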
